A study of Mus musculus with 4 samples.

Results

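The population described here is the granzyme-negative innate-like intraepithelial lymphocytes (IELs) among T cell receptor (TCR) beta-positive, CD8alpha-positive cells of the mouse colon. Members were chosen by detected transcripts of 7 genes: a cell was a member if none of its transcripts came from Gzma, Gzmb, Cd8b1, S1pr1 or Ccr7 and at least 1 came from Fcer1g or Tyrobp. By this rule 6001 of the 13388 cells in the TCRbeta libraries, and of the 16787 cells in the series, were members: 4260 cells of the Tcf7WT library and 1741 of the Tcf7KO library. Transcripts were counted as UMIs, molecular tags that mark each captured mRNA once, so "negative" means that no UMI was detected. Because these 7 genes chose the cells, their levels are given as a description only.

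The study sequenced single live cells, sorted from colon IELs as CD3+ TCRbeta+ CD8alpha+ or CD3+ TCRgamma+ CD8alpha+, from mice with and without Tcf7. The strain label of every library, Tcf7WT included, was E8IcreTcf7fl/fl, a floxed Tcf7 allele with Cre driven by the E8I element of Cd8a, and only the genotype label told Tcf7WT from Tcf7KO. There was 1 library for each genotype and sort, the number of mice, their age and the deleted part of Tcf7 were not given in the sources used here, and TCRgamma+ libraries were used only as a reference. With 1 library a group there is no replicate check, so no p-value is given: intervals cover counting error only, and a difference compares 2 libraries or 2 sets of cells.

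Fcer1g and Tyrobp encode FcRgamma and DAP12, small membrane adaptors that carry the signalling motif known as ITAM and pair with activating receptors of natural killer (NK) and myeloid cells. Natural IELs of the gut, which carry CD8alpha homodimers and lack CD8beta (the product of Cd8b1), are known to use such adaptors beside their TCR and to arise from agonist-selected thymic precursors, whereas induced IELs with CD8alphabeta derive from conventional T cells. Gzma and Gzmb encode the killing proteases of cytotoxic granules, S1pr1 and Ccr7 encode receptors of recirculating T cells, and Tcf7 encodes TCF1, an HMG-box factor of T cell development and memory.

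Members made up 56.0% of the Tcf7WT library (95% Clopper-Pearson interval 54.9 to 57.2) and 30.1% of the Tcf7KO library (28.9 to 31.3). Nearly all of that gap lay in the granzyme criterion. Cells with an adaptor UMI were 88.5% and 90.8% of the Tcf7WT and Tcf7KO libraries, cells without Cd8b1 were 89.8% and 89.0%, and cells without S1pr1 and Ccr7 were 91.5% and 91.4%. Cells without a granzyme UMI were 73.6% of the Tcf7WT library and 41.6% of the Tcf7KO library. Among cells that met the other criteria, 4260 of 5997 (71.0%) lacked a granzyme UMI in Tcf7WT and 1741 of 4579 (38.0%) in Tcf7KO.

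Detection depends on depth, and the Tcf7KO cells were deeper, with a median of 2860 UMIs a cell against 2431. Each cell was therefore thinned to 1624 UMIs, the depth below which the shallowest 10% of Tcf7WT cells fell, which left out 759 Tcf7WT cells and 489 Tcf7KO cells. On thinned counts the members were 58.7% (57.6 to 59.9) of the Tcf7WT cells and 34.8% (33.5 to 36.1) of the Tcf7KO cells. Free RNA can also place granzyme UMIs in cells that do not make them. Cells with at least 3 UMIs of a set of naive T cell genes, which includes Lef1, Igfbp4, Dapl1 and Ccr7, served as a reference. Naive T cells should lack granzymes, but these cells were chosen by those UMIs alone. Of them, 20 of 174 Tcf7WT cells (11.5%) and 55 of 142 Tcf7KO cells (38.7%) carried a granzyme UMI, at median depths of 2618 and 3126.5 UMIs. After thinning these shares were 7.23% and 24.4%. The reference was not alike in the libraries. Outside the members, 25.5% of its Tcf7WT cells and 41.8% of its Tcf7KO cells carried Cd160, a receptor gene shared by NK cells and IELs. For Id3 the shares were 30.9% and 28.4%. Whether the granzyme UMIs of the reference were free RNA was not tested, nor was the part of free RNA in the difference of the member share. Counting cells with at most 1 granzyme UMI as members, an alternative chosen after seeing the data, gave 62.7% and 39.5%.

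The cells that were not members fell into 4 classes, and the largest was the granzyme-detected counterpart, which met every criterion except the absence of Gzma and Gzmb. It made up 22.8% of the Tcf7WT library (1737 cells) and 49.1% of the Tcf7KO library (2838 cells). Cells with S1pr1 or Ccr7 made up 8.50% and 8.57% whether or not they carried Cd8b1, cells with Cd8b1 but neither of these made up 6.94% and 8.23%, and the remaining cells, without an adaptor and without these 3 genes, made up 5.68% and 4.04%. The class called Cd8b1-detected below is thus the Cd8b1 cells without S1pr1 and Ccr7, and the S1pr1- or Ccr7-detected class also held 1023 and 722 Cd8b1 UMIs. Apart from the members and their counterpart, the classes thus differed little in share between the libraries. The groups called other cells below hold all 4 classes and so differ in makeup between genotypes.

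**Figure D1:**
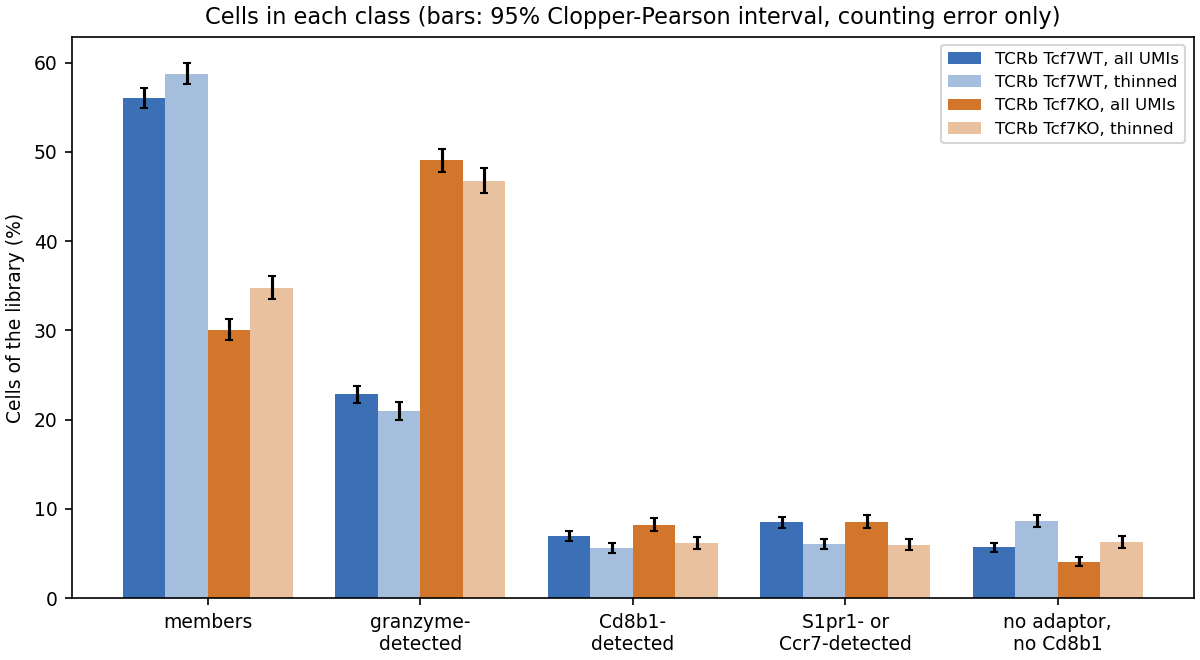
Share of the cells of each TCRbeta library (y axis, %) in the members and the 4 other classes, for Tcf7WT and Tcf7KO, with bars for 95% Clopper-Pearson intervals. Members stand at 56.0% and 30.1% of the libraries and the granzyme-detected counterpart at 22.8% and 49.1%.

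Within the members the adaptors were mostly Fcer1g. In Tcf7WT, 49.0% of members carried Fcer1g alone, 48.4% carried both adaptors and 2.63% carried Tyrobp alone; in Tcf7KO the shares were 53.4%, 44.3% and 2.30%. A member carried a median of 5 adaptor UMIs in both libraries, with a 10th percentile of 1, a 90th of 13 and the highest at 46 in Tcf7WT and 39 in Tcf7KO. Just inside the threshold, 448 Tcf7WT members (10.5%) and 194 Tcf7KO members (11.1%) rested on a single adaptor UMI. In the naive-type cells above, an adaptor UMI was found in 27.6% (Tcf7WT) and 40.8% (Tcf7KO). Whether these were stray RNA, and the part of stray RNA in the members with 1 UMI, was not tested.

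The label innate-like was checked against Fcer1g, Tyrobp, Id3 and Cd160, with levels in CPM, the UMIs of a gene summed over a class and scaled to the total UMIs of that class. The Fcer1g level in members was 1943 CPM in Tcf7WT and 1822 CPM in Tcf7KO, below the granzyme-detected counterpart (2372 and 2523 CPM) and above Cd8b1-detected cells (1215 and 1539 CPM). The Tyrobp level was 639 CPM in Tcf7WT members and 476 CPM in Tcf7KO members, against 1589 and 1468 CPM in the counterpart. Members were therefore not the cells with the highest adaptor levels in either library. Tyrobp was in fact lower in members than in all other cells together (978 and 1151 CPM), as a description of genes the rule used.

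Id3 and Cd160 were not used by the rule. Id3, which encodes an inhibitor of E protein transcription factors, was at 448 CPM (95% Poisson interval 435 to 461) in Tcf7WT members and 390 CPM (373 to 408) in Tcf7KO members. The counterpart held less, at 263 CPM (250 to 277) and 257 CPM (247 to 268). In Tcf7WT, however, the Id3 level of members lay within the range of Cd8b1-detected cells (436 CPM), S1pr1- or Ccr7-detected cells (417 CPM) and cells without adaptor (454 CPM), whose intervals overlapped that of members. Id3 thus set members apart from the counterpart as a whole and, in Tcf7WT, from no other class. It did not set them apart from counterpart cells with 1 granzyme UMI. These held Id3 at 415 CPM (382.4 to 449.8) in Tcf7WT and 384 CPM (353.5 to 416.1) in Tcf7KO, and both intervals overlapped those of members. Counterpart cells with 2 or more granzyme UMIs were at 208 and 233 CPM. In Tcf7KO, Cd8b1-detected and S1pr1- or Ccr7-detected cells were both at 310 CPM, below the members, and cells without adaptor at 367 CPM had an interval that overlapped theirs.

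Cd160, a receptor of the immunoglobulin family shared by NK cells and IELs, was highest in members among the 5 classes in both libraries. Its level was 1142 CPM (1122 to 1163) in Tcf7WT members and 978 CPM (950 to 1006) in Tcf7KO members. The counterpart was at 969 and 708 CPM, Cd8b1-detected cells at 920 and 795 CPM, cells without adaptor at 913 and 679 CPM, and S1pr1- or Ccr7-detected cells at 623 and 576 CPM. A Cd160 UMI was found in 86.7% of Tcf7WT members and 85.0% of Tcf7KO members, and in 79.6% and 75.7% after thinning. In naive-type cells outside the members the share was 25.5% and 41.8%, or 15.2% and 25.8% after thinning, at median depths of 2591 UMIs against 2287 in Tcf7WT members and 3126 against 2505 in Tcf7KO members. Counterpart cells with 1 granzyme UMI held Cd160 at 1187 CPM (1131 to 1245) in Tcf7WT and 926 CPM (878 to 975) in Tcf7KO. Both intervals overlapped those of members. Counterpart cells with 2 or more granzyme UMIs were at 889 and 667 CPM. Of the label genes that the rule did not use, Cd160 was thus highest in members among the 5 classes of both libraries, and Id3 was not in Tcf7WT. Cd160 did not set members apart from cells with 1 granzyme UMI.

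**Figure D2:**
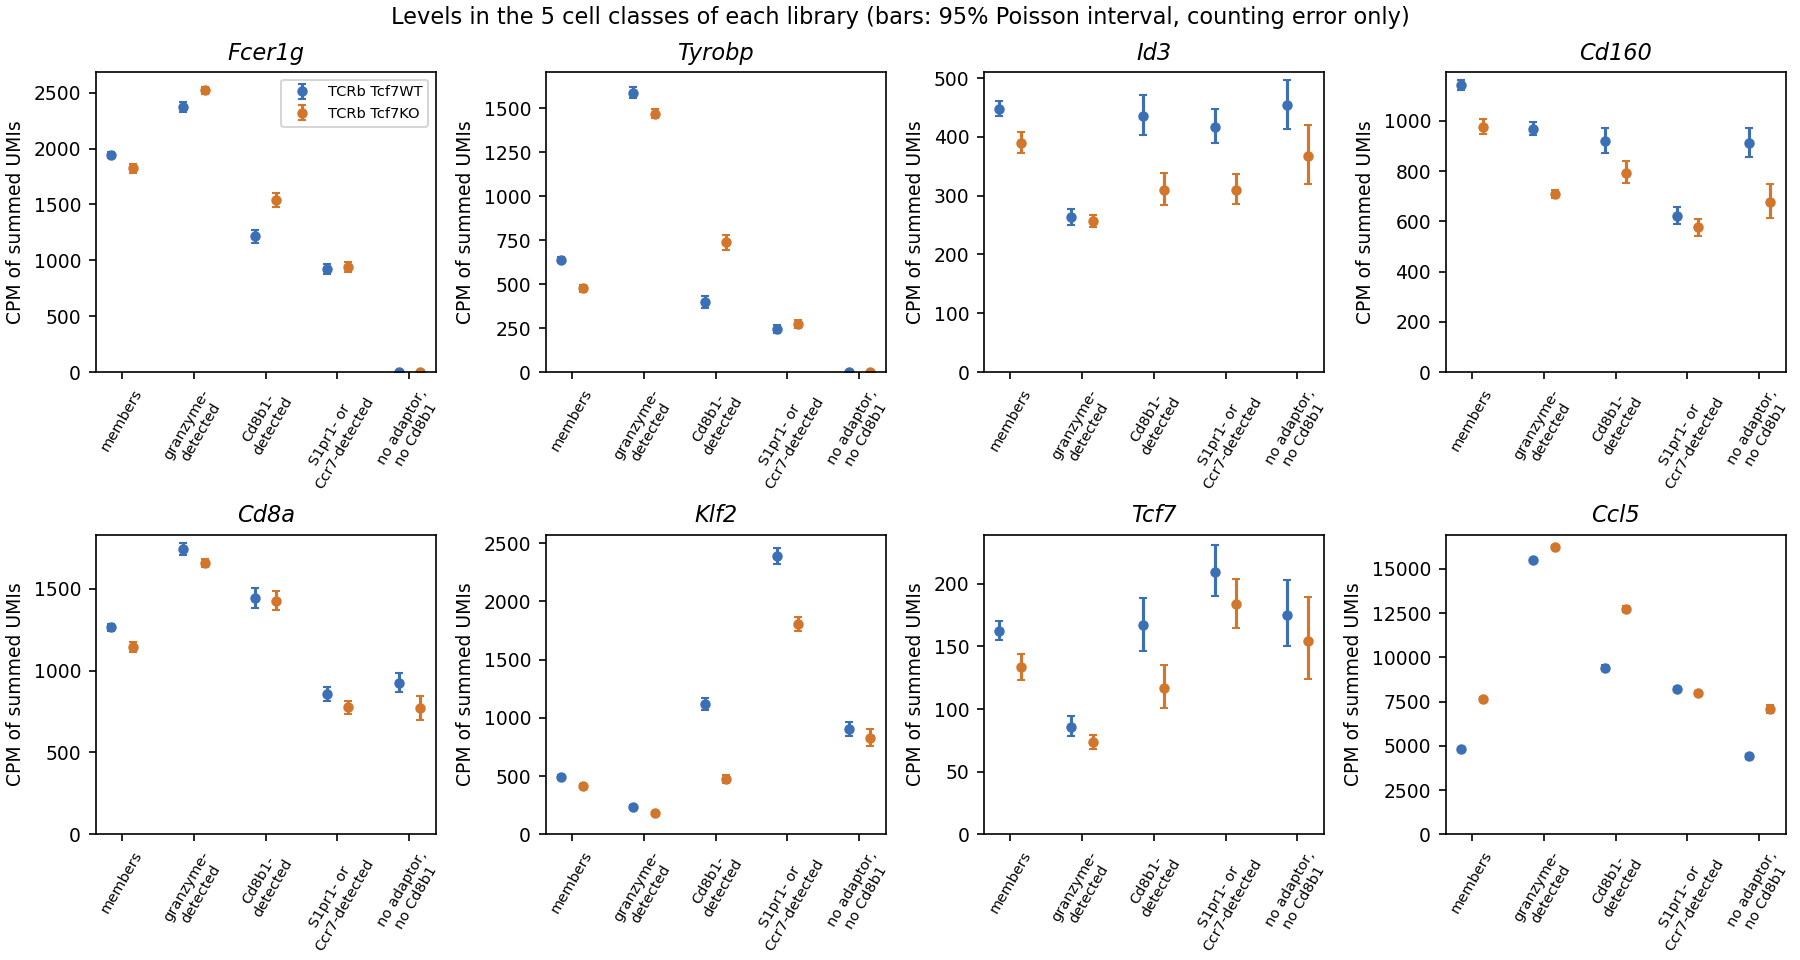
Level in CPM of summed UMIs (y axes, linear from 0) of Fcer1g, Tyrobp, Id3, Cd160 and further genes in the members and the 4 other classes (x axes) of Tcf7WT and Tcf7KO, with 95% Poisson intervals. Cd160 is highest in members in both libraries, at 1142 and 978 CPM, whereas Tyrobp is highest in the granzyme-detected counterpart, at 1589 and 1468 CPM.

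The sort was checked in the same cells. The alpha-beta T cell genes (7 measured, led by Cd3g) summed to 11165 CPM in Tcf7WT members and 10803 CPM in Tcf7KO members, and 4257 of 4260 and 1740 of 1741 members carried at least 2 of their UMIs. Trac was at 959 and 879 CPM, Trbc1 at 851 and 905 CPM, and Trbc2 at 2016 and 1971 CPM. Trdc, the constant region of TCR delta, was at 17.6 and 18.5 CPM, against 1946 and 1905 CPM in the TCRgamma+ libraries. Cd8a, the gene of the sorted CD8alpha chain, was at 1265 CPM in Tcf7WT members and 1142 CPM in Tcf7KO members. CD4 T cell genes summed to 73.7 and 117 CPM, with Foxp3 at 0 UMIs in Tcf7WT members and not measured in Tcf7KO. Members were alpha-beta T cells by these genes.

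Markers of other cell types were not equal between the libraries or between members and other cells. The NK and ILC1 genes summed to 287 CPM in Tcf7WT members and 316 CPM in Tcf7KO members, against 323 and 404 CPM in other cells, with the defining gene Ncr1 at 0 UMIs in Tcf7KO members and not measured in Tcf7WT. The ILC2 and ILC3 genes summed to 338 and 311 CPM in members against 285 and 288 CPM in other cells, led by Kit in Tcf7WT and Gata3 in Tcf7KO, and the 3 of 12 mast cell and basophil genes measured summed to 202 and 145 CPM against 150 and 126 CPM, led by Kit. Of the neutrophil list, 0 of 8 genes were measured here. Macrophage genes, 5 of 13 measured and Lyz2, Csf1r and C1qa not among them, were at 7.14 and 8.19 CPM, and dendritic cell genes at 35.1 and 17.6 CPM. B cell and plasma cell genes, 6 of 11 measured in Tcf7WT and 4 in Tcf7KO, summed to 458 and 501 CPM, led by Ighm. Epithelial genes summed to 209 CPM in Tcf7WT members and 562 CPM in Tcf7KO members, against 769 and 298 CPM in other cells. Epcam gave 1758 of the 2198 epithelial UMIs of Tcf7WT members and 2678 of the 4062 of Tcf7KO other cells. In these sets 408 and 620 cells carried at least 2 epithelial UMIs. Epcam gave 1886 of 7525 UMIs in Tcf7WT other cells, and Muc2 gave 1711 of 2678 in Tcf7KO members. Cells with at least 20 epithelial UMIs were 1 member and 10 other cells in Tcf7WT and 1 member and 2 other cells in Tcf7KO.

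To show the sequence around the genes that carry the results below, the 250 bases upstream of the transcription start are printed for 5 genes from RefSeq (assembly GRCm38.p6): Fcer1g, as the adaptor most members carry; Cd160, the label gene highest in members, with both of its listed starts; and Cxcr6, Cd200r2 and Klra5, which are described between the genotypes below. The intervals are chr1:171234350-171234599 on the minus strand for Fcer1g, chr3:96814522-96814771 and chr3:96829352-96829601 on the minus strand for Cd160, chr9:123806227-123806476 on the plus strand for Cxcr6, chr16:44866847-44867096 on the plus strand for Cd200r2 and chr6:129913225-129913474 on the minus strand for Klra5. Capitals mark CTTTGA or its reverse complement TCAAAG, the core of the motif that TCF1 and related factors bind, and CANNTG, the E-box bound by E proteins, the factors that Id3 inhibits. No match of one motif overlapped the other. The starts of Cd160 are numbered by coordinate. On the minus strand this gene spans chr3:96798763-96829351, so the window of its first start lies within the gene and that of its second start just upstream of it.
Fcer1g: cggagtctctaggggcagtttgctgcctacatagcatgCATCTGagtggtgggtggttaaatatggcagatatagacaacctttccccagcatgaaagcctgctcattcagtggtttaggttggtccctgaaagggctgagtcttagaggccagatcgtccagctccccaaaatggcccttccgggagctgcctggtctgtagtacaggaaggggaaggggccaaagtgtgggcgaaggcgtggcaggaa
Cd160, first start: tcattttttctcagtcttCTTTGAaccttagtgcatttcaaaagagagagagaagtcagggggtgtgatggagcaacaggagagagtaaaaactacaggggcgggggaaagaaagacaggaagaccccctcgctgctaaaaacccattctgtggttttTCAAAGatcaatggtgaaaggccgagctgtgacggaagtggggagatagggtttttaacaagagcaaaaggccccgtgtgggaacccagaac
Cd160, second start: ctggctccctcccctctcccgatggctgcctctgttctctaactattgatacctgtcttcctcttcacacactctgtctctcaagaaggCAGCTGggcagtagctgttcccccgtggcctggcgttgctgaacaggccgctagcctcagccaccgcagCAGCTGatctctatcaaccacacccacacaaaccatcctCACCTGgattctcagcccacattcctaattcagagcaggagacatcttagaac
Cxcr6: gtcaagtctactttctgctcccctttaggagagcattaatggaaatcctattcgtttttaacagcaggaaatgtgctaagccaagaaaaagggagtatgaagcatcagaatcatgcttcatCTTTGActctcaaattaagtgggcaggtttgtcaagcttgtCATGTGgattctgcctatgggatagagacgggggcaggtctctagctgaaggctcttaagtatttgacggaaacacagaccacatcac
Cd200r2: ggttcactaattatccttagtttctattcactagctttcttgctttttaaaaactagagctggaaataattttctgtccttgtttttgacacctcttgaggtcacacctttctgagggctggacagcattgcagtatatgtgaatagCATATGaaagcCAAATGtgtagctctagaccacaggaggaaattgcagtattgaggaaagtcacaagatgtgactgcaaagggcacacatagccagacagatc
Klra5: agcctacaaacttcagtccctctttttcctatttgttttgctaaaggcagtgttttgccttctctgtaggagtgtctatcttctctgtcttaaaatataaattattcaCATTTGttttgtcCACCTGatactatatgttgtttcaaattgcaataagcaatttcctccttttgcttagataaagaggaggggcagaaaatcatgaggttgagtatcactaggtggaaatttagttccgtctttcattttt
The TCF core occurred 2 times before the Cd160 start listed first, in the window within the gene, and 1 time before Cxcr6. It occurred in none of the other 4 windows. Across all 32851 windows of this length in the table, 13.8% held a TCF core and 66.2% held an E-box. A match describes letters only.

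Members were next compared with the other cells of their own library. The difference ran mainly one way: few genes were higher in members and many were lower. Genes were compared if they had at least 100 UMIs over both sets of cells and at least 20 CPM in the higher set. Of 7009 genes compared in Tcf7WT, 11 (0.157%) were at least 1.5-fold higher in members and 145 (2.07%) were at least 1.5-fold lower. In Tcf7KO, 25 of 6878 genes (0.363%) were higher and 105 (1.53%) lower. Without the epithelial-like cells, an alternative chosen after seeing the data, the lower genes numbered 115 in Tcf7WT and 95 in Tcf7KO.

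Over the 6759 genes compared in both libraries, 2 were higher in members in both, Myl1 and the unnamed gene model Gm19590. Myl1, which encodes a myosin light chain best known from muscle, was at 84.3 CPM in Tcf7WT members against 46.0 CPM in other cells, a log2 ratio of 0.87 (95% interval 0.71 to 1.04). In Tcf7KO it was at 76.9 against 49.2 CPM, a log2 ratio of 0.64 (0.46 to 0.83), which was 0.57, just under 1.5-fold, when members needed at least 2 adaptor UMIs. A Myl1 UMI was found in 9.34% of Tcf7WT members and 9.30% of Tcf7KO members, and in 7.50% and 6.90% after thinning. In naive-type cells the shares were 4.24% and 6.72%, and 3.16% and 4.84% after thinning. The gene was thus read in a minority of members. Cells without adaptor or Cd8b1 held it at the same level, at 84.2 CPM in Tcf7WT and 82.9 CPM in Tcf7KO, with thinned shares of 7.18% and 7.32%, so Myl1 did not set members apart from that class.

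Lower in members in both libraries were 58 genes, 52.7% of those lower in Tcf7WT and 61.1% of those lower in Tcf7KO among the genes compared in both. They included chemokine genes. Ccl5, which encodes the chemokine RANTES stored by cytotoxic T cells, was at 4820 CPM in Tcf7WT members against 11973 CPM in other cells, a log2 ratio of -1.31 (-1.33 to -1.30), and at 7658 against 14285 CPM in Tcf7KO, a log2 ratio of -0.90 (-0.92 to -0.88). Ccl4, a chemokine made on activation, was at 88.8 against 289 CPM and at 106 against 283 CPM (log2 ratios -1.70 and -1.42). Fgl2, a fibrinogen-like protein secreted by some regulatory and effector T cells, was at 92.2 against 305 CPM and at 155 against 440 CPM (log2 ratios -1.73 and -1.51). All 3 transcripts were thus lower in members but present.

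Receptors and adhesion molecules were also among the genes lower in members. Cd200r2, a receptor of the CD200 receptor family, was at 63.5 CPM in Tcf7WT members against 143 CPM in other cells (log2 ratio -1.17, interval -1.31 to -1.04) and at 31.7 against 171 CPM in Tcf7KO (-2.43, interval -2.68 to -2.20). Tnfrsf9, the costimulatory receptor 4-1BB induced on activated T cells, was at 40.5 against 79.8 CPM in Tcf7WT and at 33.6 against 154 CPM in Tcf7KO (log2 ratios -0.98 and -2.20). Adgre5, the adhesion receptor CD97, was at 14.2 against 64.2 CPM and at 26.5 against 55.9 CPM (log2 ratios -2.18 and -1.08). For Cd200r2 and Tnfrsf9 the gap was wider in Tcf7KO, and for Adgre5 it was wider in Tcf7WT.

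The naming rule gave further genes that were lower in members of both libraries. Il7r, the receptor of interleukin 7, was at 12.2 CPM in Tcf7WT members against 82.7 CPM in other cells (log2 ratio -2.76) and at 28.1 against 51.9 CPM in Tcf7KO (-0.88). The granzyme-detected counterpart held less Il7r than members. Its cells with 1 granzyme UMI were at 9.07 CPM in Tcf7WT and 20.2 CPM in Tcf7KO, and those with 2 or more at 3.82 and 6.9 CPM. Ly6c2, a surface protein of memory CD8 T cells, was at 30.5 against 98.9 CPM and at 19.3 against 57.2 CPM (log2 ratios -1.70 and -1.57). Counterpart cells with 2 or more granzyme UMIs held less Ly6c2 than members, at 11.2 CPM in Tcf7WT and 3.39 CPM in Tcf7KO. Those with 1 granzyme UMI were at 0 and 23.4 CPM. The galectin gene Lgals1 was at 25.0 against 115 CPM and at 22.9 against 51.1 CPM (log2 ratios -2.20 and -1.16), and Lgals3 at 106 against 229 CPM and at 82.7 against 224 CPM (-1.11 and -1.43). S100a4, a calcium-binding protein of migrating effector cells, was at 20.6 against 101 CPM in Tcf7WT (log2 ratio -2.30) and at 24.8 against 51.2 CPM in Tcf7KO (-1.05), but the Tcf7KO ratio was -0.08 on thinned counts. Arrdc4, an alpha-arrestin gene, was at 30.5 against 52.6 CPM and at 27.1 against 67.0 CPM (log2 ratios -0.79 and -1.31). Since the rule removes cells with Gzma, Gzmb, Cd8b1, S1pr1 or Ccr7, genes that such cells share are tied to the rule. The lower values given here and above thus add no independent support to the label.

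**Figure D3:**
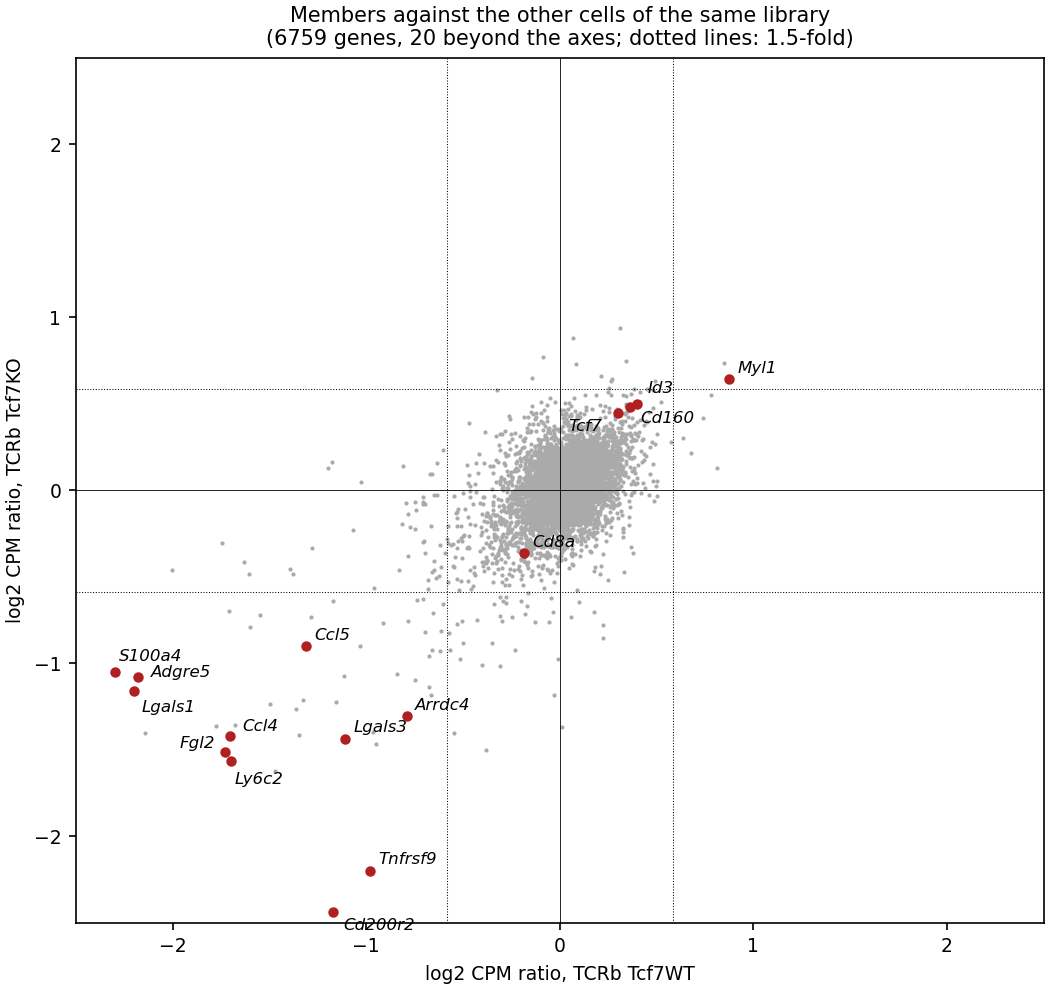
Log2 CPM ratio of members to other cells in Tcf7WT (x axis) and Tcf7KO (y axis) for the 6759 genes compared in both libraries, without the 7 genes of the rule; dotted lines mark 1.5-fold. The named points lie mostly in the lower left, where 58 genes are at least 1.5-fold lower in both libraries, and 2 genes are higher in both.

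The other cells mix classes, so members were also set beside single classes. These comparisons share the members and are not independent of each other. Against the granzyme-detected counterpart in Tcf7WT, 96 of 7026 genes (1.37%) were higher in members and 194 (2.76%) lower, and in Tcf7KO 124 of 6893 (1.8%) were higher and 157 (2.28%) lower. Transcription factor and receptor genes were among those higher in members in both libraries. Klf2, a transcription factor of quiescent and recirculating T cells, was at 492 CPM in Tcf7WT members against 237 CPM in the counterpart, a log2 ratio of 1.05 (0.96 to 1.14), and at 414 against 186 CPM in Tcf7KO, a log2 ratio of 1.15 (1.06 to 1.24). Klf3, a repressor of the same family, was at 60.7 against 24.6 CPM and at 89.5 against 43.8 CPM (log2 ratios 1.30 and 1.03).

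Cd28, the main costimulatory receptor of T cells, was at 78.0 CPM in Tcf7WT members against 28.0 CPM in the counterpart and at 96.0 against 32.9 CPM in Tcf7KO (log2 ratios 1.48 and 1.54). Ms4a4b, a membrane protein of T cells, was at 207 against 80.8 CPM and at 218 against 73.6 CPM (1.36 and 1.57). Rgs10, a regulator of G protein signalling, was at 237 against 100 CPM and at 225 against 92.7 CPM (1.24 and 1.28). All 3 were more than 2-fold higher in members of both libraries.

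Lower than in the counterpart were Tmem273, a gene of a small membrane protein, at 6.95 against 67.4 CPM in Tcf7WT and 37.4 against 153 CPM in Tcf7KO (log2 ratios -3.28 and -2.04), and Adrb1, the beta-1 adrenergic receptor, at 27.2 against 81.4 CPM and at 18.3 against 61.5 CPM (-1.58 and -1.75). The genes already named among those lower than in other cells had wider gaps here. For Fgl2 the log2 ratios were -2.41 in Tcf7WT and -1.82 in Tcf7KO, for Ccl4 -2.22 and -1.63, for Cd200r2 -1.92 and -2.81, and for Tnfrsf9 -1.62 and -2.53. Tcf7 itself was higher in members than in the counterpart in both libraries, at 163 against 86.1 CPM (log2 ratio 0.92, interval 0.77 to 1.07) and at 133 against 73.7 CPM (0.85, interval 0.70 to 1.01).

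Against Cd8b1-detected cells, which were 528 in Tcf7WT and 476 in Tcf7KO, 159 of 7019 genes (2.27%) were higher in Tcf7WT members and 155 (2.21%) lower. In Tcf7KO 134 of 6923 genes (1.94%) were higher and 114 (1.65%) lower. Kit, the receptor of stem cell factor, was at 195 CPM in Tcf7WT members against 114 CPM, a log2 ratio of 0.78 (0.55 to 1.02), and at 139 against 86.6 CPM in Tcf7KO, a log2 ratio of 0.68 (0.41 to 0.95). Tspyl2, a nucleosome assembly protein gene, was at 67.4 against 41.5 CPM and at 58.6 against 38.4 CPM (0.70 and 0.61), and its Tcf7KO ratio was under 1.5-fold on thinned counts, at 0.43.

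Lower in members than in Cd8b1-detected cells were receptor and cytokine genes, among others. Cd6, a TCR-associated receptor related to Cd5, was at 12.9 CPM in Tcf7WT members against 89.2 CPM (log2 ratio -2.80) and at 14.9 against 68.7 CPM in Tcf7KO (-2.20). Ifng, the gene of interferon gamma, was at 35.8 against 179 CPM and at 40.3 against 134 CPM (-2.32 and -1.73). Il7r was at 184 and 129 CPM in Cd8b1-detected cells (log2 ratios -3.92 and -2.19), Lgals1 at 236 and 100 CPM (-3.24 and -2.13) and S100a4 at 184 and 87.3 CPM (-3.17 and -1.82). The receptor gene Lilr4b was at 14.1 against 51.1 CPM and at 18.3 against 58.2 CPM (-1.86 and -1.67). Members thus lay below the granzyme-detected cells for Fgl2, Ccl4 and Tnfrsf9 and below the Cd8b1-detected cells for Il7r, Cd6 and Lgals1.

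Gene groups from lists were counted in the same way, over genes with at least 50 UMIs and with no minimum of CPM. By this rule 1.65% of 10885 genes were at least 1.5-fold higher in Tcf7WT members than in other cells and 4.81% lower, and in Tcf7KO 1.83% of 10596 genes were higher and 4.09% lower. The median log2 ratio over all these genes was 0.03 in Tcf7WT and 0.02 in Tcf7KO.

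The naive and memory list stood between the classes. Against other cells, 0 of its 25 measured genes were higher in Tcf7WT members and 12 lower (median -0.31), and in Tcf7KO 0 of 24 were higher and 7 lower (median -0.05). Against the granzyme-detected counterpart, where both sets lack S1pr1 and Ccr7 by the rule, 12 of 21 were higher and 1 lower in Tcf7WT (median 0.64) and 12 of 21 higher and 0 lower in Tcf7KO (median 0.73). Over all genes in that comparison, 4.22% were higher and 4.47% lower in Tcf7WT, and 3.63% and 3.92% in Tcf7KO. Lef1, the factor most closely related to TCF1, was at 34.2 CPM in Tcf7WT members against 14.0 CPM in the counterpart and 64.0 CPM in Cd8b1-detected cells, and at 53.1 CPM in Tcf7KO members against 22.9 and 53.2 CPM.

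The NK receptor list was counted against other cells and against single classes. Against other cells, 2 of 24 measured genes were higher in Tcf7WT members and 5 lower (median 0.09), and in Tcf7KO 1 of 25 was higher and 6 lower (median -0.01). Klra9, of the Ly49 family of NK receptors, was at 41.6 CPM in Tcf7WT members against 23.7 CPM in other cells (log2 ratio 0.81) and at 47.0 against 43.1 CPM in Tcf7KO (0.13). Lilrb4a, an inhibitory receptor, was at 13.3 against 37.6 CPM and at 17.4 against 41.1 CPM (-1.50 and -1.24). Against the granzyme-detected counterpart, 3 of 24 genes were higher in Tcf7WT members and 9 lower (median -0.09), where all genes gave 4.22% and 4.47%. In Tcf7KO 2 of 24 were higher and 7 lower (median -0.13), with 3.63% and 3.92% of all genes. Against Cd8b1-detected cells, 9 of 23 genes were higher and 1 lower in Tcf7WT (median 0.42), where all genes gave 6.79% higher and 3.51% lower. In Tcf7KO 1 of 21 was higher and 2 lower (median 0.08), with 4.03% and 2.58% of all genes. The difference between the libraries was not tested.

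Transcription factors and receptors of effector cells were mostly at or below the level of other cells. Of the 30 transcription factors of innate-like and effector T cells measured in Tcf7WT, 0 were higher and 6 lower (median -0.10), and of 29 in Tcf7KO 0 were higher and 4 lower (median 0.02). Prdm1, the effector factor Blimp-1, was at 4.09 CPM in Tcf7WT members against 23.9 CPM in other cells and at 5.04 against 24.8 CPM in Tcf7KO (log2 ratios -2.55 and -2.30). Irf8, an interferon regulatory factor, was at 87.8 against 112 CPM and at 85.0 against 157 CPM (-0.35 and -0.88). Among 20 cytokine receptors, 0 were higher and 4 lower in Tcf7WT and 0 higher and 3 lower in Tcf7KO, and Il2rb, a shared chain of the interleukin 2 and 15 receptors, was at 161 against 261 CPM and at 201 against 356 CPM (-0.70 and -0.82). The Tcf7WT ratio of Il2rb was -0.58, just under 1.5-fold, on thinned counts.

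The cytotoxic granule list, without Gzma and Gzmb, had 0 of 19 genes higher and 3 lower in Tcf7WT (median -0.11) and 0 of 19 higher and 2 lower in Tcf7KO (median -0.25). Gzmc, a further granzyme, was at 4.47 CPM in Tcf7WT members against 16.9 CPM in other cells and at 6.93 against 49.2 CPM in Tcf7KO. Prf1, the pore-forming protein perforin, was at 8.66 against 15.6 CPM and at 13.9 against 18.9 CPM. Because the rule removes cells with Gzma or Gzmb, lower levels of genes that such cells share are tied to the rule. The inhibitory receptor list had 0 of 13 higher and 4 lower in Tcf7WT (median -0.30) and 0 of 13 higher and 3 lower in Tcf7KO (median -0.29).

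The tissue residency list, of genes that keep T cells in the gut wall, differed little between members and other cells, with 0 of 19 genes higher in both libraries and 1 lower in Tcf7WT (median 0.01) and 2 lower in Tcf7KO (median -0.11). Ahr, a ligand-activated factor needed to maintain IELs, was at 438 against 351 CPM and at 417 against 316 CPM (log2 ratios 0.32 and 0.40). MHC class I had 0 of 15 genes past 1.5-fold in either direction in both libraries. The ITAM list without the rule's adaptors had 0 of 17 higher and 1 lower in Tcf7WT and 0 of 17 higher and 2 lower in Tcf7KO, and the TCR signalling list 0 of 23 higher and 3 or 2 lower. Cd5, an inhibitor of TCR signalling, was at 8.76 against 28.6 CPM and at 9.66 against 15.2 CPM (-1.71 and -0.65). The granzyme-detected counterpart went the other way. Its cells with 1 granzyme UMI held Cd5 at 6.98 CPM in Tcf7WT and 7.81 CPM in Tcf7KO, and those with 2 or more at 1.53 and 1.26 CPM. Against the counterpart, 6 of 23 TCR signalling genes were higher in Tcf7WT members and 0 lower, where all genes gave 4.22% and 4.47%. In Tcf7KO 5 of 22 were higher and 0 lower, with 3.63% and 3.92% of all genes.

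The cell cycle list had the lowest median, with 0 of 33 genes higher and 21 lower in Tcf7WT (median -1.01) and 0 of 32 higher and 12 lower in Tcf7KO (median -0.31). Mki67, a marker of cycling cells, was at 9.52 CPM in Tcf7WT members against 31.1 CPM in other cells and at 19.7 against 32.0 CPM in Tcf7KO. These counts depended on few deep cells. Without cells above the 95th percentile of UMIs the list had 6 of 21 genes lower and a median of -0.15 in Tcf7WT, and 4 higher, 1 lower and a median of 0.13 over 22 genes in Tcf7KO.

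**Figure D4:**
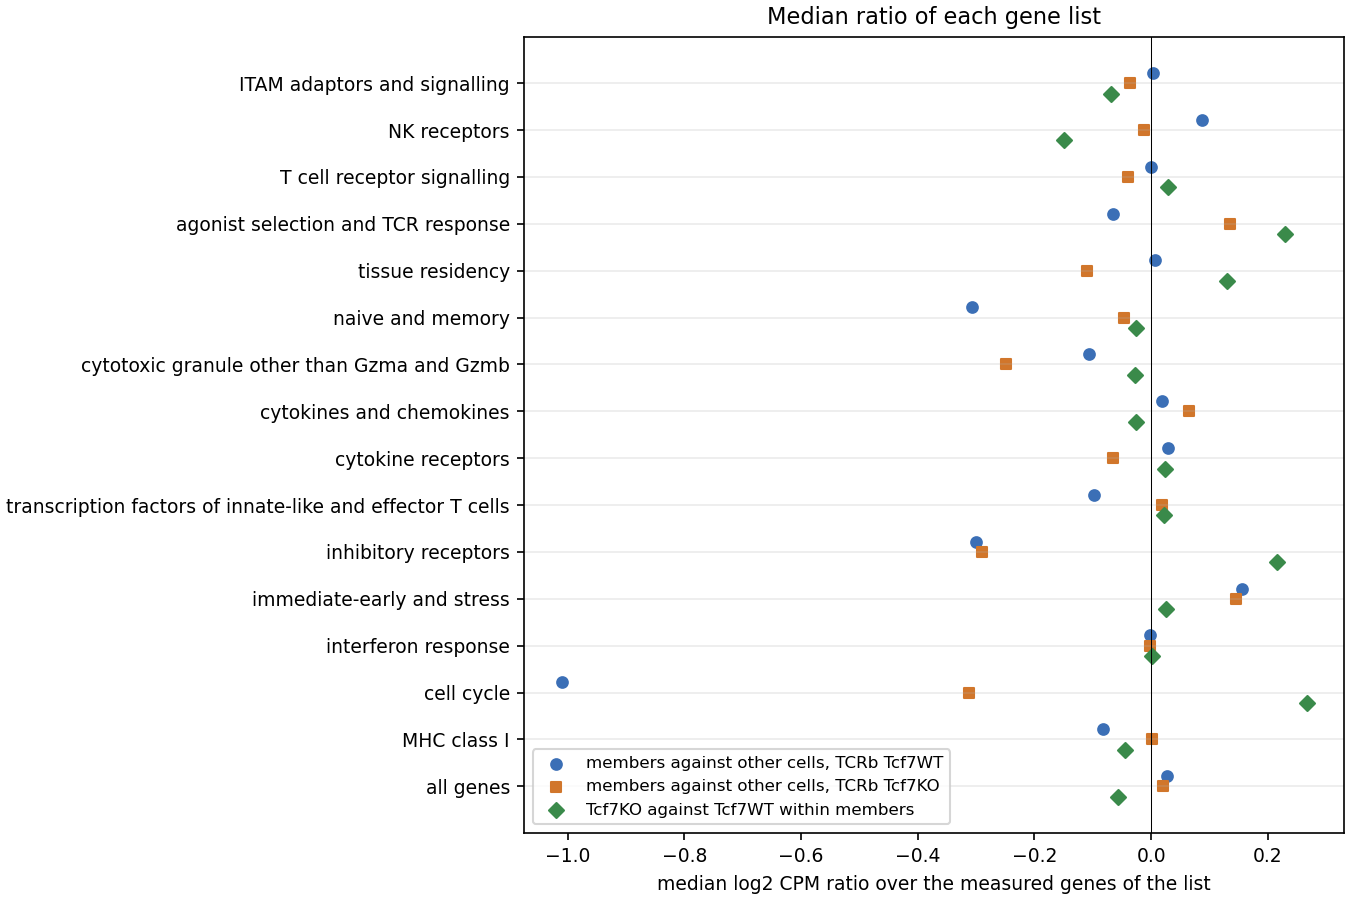
Median log2 CPM ratio (x axis) over the measured genes of each list (y axis), for members against other cells in each library and for Tcf7KO against Tcf7WT within members, with all genes as the reference row. The cell cycle list has the lowest median, -1.01 in Tcf7WT, and most other lists lie close to 0.

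Members also varied among themselves with the number of adaptor UMIs. On thinned counts in Tcf7WT, 592 members had 1 adaptor UMI, 640 had 2 and 2788 had 3 or more, and 532 cells that met every other criterion had none. Klra5, an NK receptor of the Ly49 family, was at 33.6 CPM in the cells without adaptor UMIs, 77.0 CPM in members with 1, 98.1 CPM with 2 and 289 CPM with 3 or more. Klf2 ran the other way, at 1066, 716, 602 and 437 CPM. In Tcf7KO the Klra5 levels were 26.2, 44.4, 54.3 and 154 CPM and the Klf2 levels 888, 644, 481 and 380 CPM. Both orders were the same in the 2 libraries.

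Cells with granzyme UMIs continued these orders. Just outside the threshold, 435 thinned Tcf7WT cells had 1 granzyme UMI and met every other criterion, and 1000 had 2 or more. Klra5 was at 394 and 542 CPM in them and Klf2 at 330 and 200 CPM. For Id3 and Ccl5 the break came later. Id3 was at 420 CPM in members with 3 or more adaptor UMIs, 402 CPM in cells with 1 granzyme UMI and 169 CPM in cells with 2 or more, and Ccl5 was at 5065, 6547 and 22970 CPM. In Tcf7KO, Id3 was at 398, 384 and 226 CPM and Ccl5 at 8368, 10330 and 18800 CPM in these 3 sets. Cells with a single granzyme UMI were therefore nearer to members than to cells with 2 or more for both genes, in both libraries.

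Splitting members by Tyrobp gave a related pattern, with both sets thinned to the same depth (1702 members with and 2072 without a Tyrobp UMI in Tcf7WT, 572 and 979 in Tcf7KO). The genes given here were chosen after their values were seen. Klra5 was at 322 CPM in Tcf7WT members with Tyrobp against 131 CPM without, and at 146 against 90.6 CPM in Tcf7KO (log2 ratios 1.30 and 0.69). Car2, a carbonic anhydrase, was at 328 against 139 CPM and at 190 against 98.8 CPM (1.24 and 0.94), and Lgals3 at 134 against 58.2 CPM and at 93.7 against 47.2 CPM (1.20 and 0.99). Thy1, a surface protein of conventional T cells, was lower with Tyrobp, with log2 ratios of -0.63 and -0.78.

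The genotypes were then compared within members. Tcf7 was at 163 CPM (155 to 171) in Tcf7WT members and 133 CPM (123 to 144) in Tcf7KO members, a log2 ratio of -0.29 (-0.42 to -0.15), and at 132 and 97.6 CPM in other cells (-0.43). The transcript was thus lower in the library labelled Tcf7KO but not absent. Libraries of this kind read the end of a transcript, and whether the deleted part lies there was not given in the sources used here, so this level does not check the label. Id3 and Cd160 were also slightly lower in Tcf7KO members, with log2 ratios of -0.20 (-0.28 to -0.12) and -0.22 (-0.27 to -0.18).

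Of 6945 genes compared, 104 (1.5%) were at least 1.5-fold higher in Tcf7KO members and 45 (0.648%) lower. Scaling by TMM factors gave 127 higher and 31 lower, and by DESeq2 size factors 129 and 29. Within other cells, 77 of 6942 genes (1.11%) were higher and 77 (1.11%) lower. Chemokine and inhibitory receptors were among the higher genes.

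Cxcr6, the receptor of the epithelial and myeloid chemokine CXCL16, was at 342 CPM in Tcf7KO members against 112 CPM in Tcf7WT members, a log2 ratio of 1.61 (1.5 to 1.72), and its ratio in other cells was 1.19. Ptger4, a receptor of prostaglandin E2, was at 82.7 against 36.2 CPM (1.19 in members, 0.66 in other cells). Fasl, the death ligand that engages Fas, was at 156 against 75.2 CPM (1.06, interval 0.91 to 1.20, and 0.75 in other cells). The ratios of these genes were larger in members than in other cells, by 0.42 (0.28 to 0.55) for Cxcr6, 0.53 (0.30 to 0.77) for Ptger4 and 0.30 (0.13 to 0.48) for Fasl, with intervals for counting error only.

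The inhibitory receptor list had 3 of 13 measured genes higher and 1 lower (median 0.22), against 2.59% higher and 3.53% lower among 10348 genes (median -0.06). Ctla4 was at 81.1 CPM in Tcf7KO members against 42.5 CPM in Tcf7WT members (log2 ratio 0.93), Pdcd1, the gene of PD-1, at 29.8 against 11.7 CPM (1.35) and Tigit at 6.93 against 3.24 CPM (1.10). Tigit rests on 33 and 34 UMIs. In other cells the ratios of Ctla4, Pdcd1 and Tigit were 0.52, 1.11 and 0.33. The listed gene that was lower was Cd200r2, and whether its receptor inhibits was not tested here.

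The naming rule gave 3 further genes higher in Tcf7KO members: Ier5l, an immediate-early gene relative, at 95.1 against 45.2 CPM (log2 ratio 1.07), Hnrnpa0, an RNA-binding protein, at 403 against 203 CPM (0.99) and Atp5md, a subunit of the mitochondrial ATP synthase, at 109 against 58.7 CPM (0.89). Their ratios in other cells were 1.29, 0.92 and 0.74. The cytotoxic granule list had 5 of 18 genes higher in Tcf7KO members and 0 lower (median -0.03, and 0.03 with DESeq2 size factors), among them Fasl, Prf1 at 13.9 against 8.66 CPM (0.68) and the serpin gene Serpinb6b at 151 against 97.7 CPM (0.63). Ccl5 was at 7658 against 4820 CPM (0.67), and 0.25 in other cells. Granzyme RNA itself is excluded from members by the rule.

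The largest ratios in Tcf7KO members came from a single cell. Muc2, Retnlb and Spink4, genes of mucus-secreting goblet cells, had log2 ratios of 5.58, 7.14 and 6.54, and 1 Tcf7KO member held 1703 of their 1711 Muc2 UMIs, 638 of 640 Retnlb UMIs and 548 of 549 Spink4 UMIs. Without epithelial-like cells the ratios were 0.56, -1.17 and -2.55.

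Lower in Tcf7KO members were 2 receptor genes that differed little between genotypes in other cells. Cd200r2 was at 31.7 CPM in Tcf7KO members against 63.5 CPM in Tcf7WT members, a log2 ratio of -1.0 (-1.27 to -0.74), and at 171 against 143 CPM in other cells (0.26). Klra5 was at 119 against 228 CPM in members, a log2 ratio of -0.93 (-1.07 to -0.80), and at 338 against 297 CPM in other cells (0.18). The ratio in members minus that in other cells was -1.26 (-1.54 to -0.99) for Cd200r2 and -1.12 (-1.27 to -0.97) for Klra5. Both genes were highest in the granzyme-detected counterpart, where Cd200r2 was at 240 CPM in Tcf7WT and 222 CPM in Tcf7KO and Klra5 at 476 and 442 CPM. Within the counterpart, cells with 1 granzyme UMI also held less Klra5 in Tcf7KO, at 161 CPM against 364 CPM in Tcf7WT. Counterpart cells with 2 or more granzyme UMIs were at 497 against 517 CPM. The lower Klra5 level was thus not particular to members. The counterpart was a larger share of the Tcf7KO library, so the makeup of the other cells differed as well.

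Car2 was at 128 CPM in Tcf7KO members against 229 CPM in Tcf7WT members (log2 ratio -0.84). Asb2, a ubiquitin ligase subunit, was at 108 against 165 CPM (-0.60, and -0.55 with DESeq2 size factors, under 1.5-fold). Sidt1, of a family of RNA-transport membrane proteins, was at 37.8 against 60.2 CPM, and Abhd8, a hydrolase gene, at 56.7 against 88.5 CPM (-0.67 and -0.64, and -0.54 and -0.51 on thinned counts). Klra5, Car2 and Asb2 were also higher in members with Tyrobp than without, and Tyrobp was carried by 51.0% of Tcf7WT members and 46.6% of Tcf7KO members (45.1% and 36.9% after thinning). Among thinned members with Tyrobp, Tcf7KO was at 146 against 322 CPM for Klra5, 190 against 328 CPM for Car2 and 131 against 192 CPM for Asb2. Without Tyrobp the levels were 90.6 against 131, 98.8 against 139 and 80.5 against 128 CPM. The part of the Tyrobp share in the genotype ratios was not tested.

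**Figure D5:**
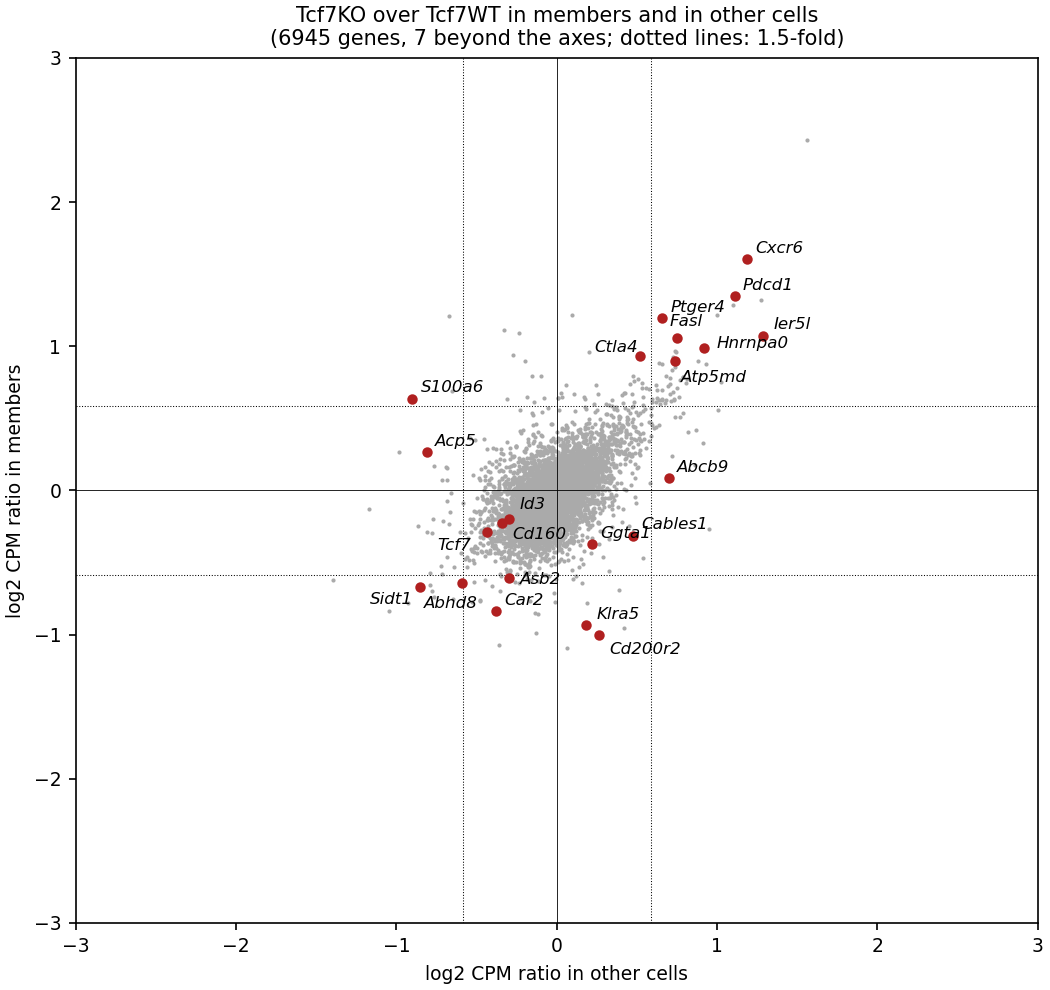
Log2 CPM ratio of Tcf7KO to Tcf7WT in members (y axis) and in other cells (x axis) for the 6945 genes compared in members. Dotted lines mark 1.5-fold. Cxcr6, at 1.61 and 1.19, is high in both sets, whereas Cd200r2, at -1.0 and 0.26, and Klra5, at -0.93 and 0.18, are low in members and not in other cells.

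The naive and memory genes had 3 of 21 higher and 1 lower in Tcf7KO members (median -0.03, and 0.03 with DESeq2 size factors), whereas in other cells 0 of 25 were higher and 11 lower (median -0.45), where 2.15% of 11082 genes were higher and 4.59% lower. Il7r was at 28.1 CPM in Tcf7KO members against 12.2 CPM in Tcf7WT members (log2 ratio 1.21) and at 51.9 against 82.7 CPM in other cells (-0.67). Lef1 was at 53.1 against 34.2 CPM in members (0.64, and 0.56 on thinned counts) and at 48.3 against 59.8 CPM in other cells (-0.31). Other differences between the genotype ratios of members and other cells were 1.54 (1.36 to 1.71) for S100a6, a calcium-binding protein gene, and 1.08 (0.83 to 1.32) for Acp5, an acid phosphatase. The S100a6 ratio was 0.64 in members and -0.90 in other cells, and without the epithelial-like cells, 1 of which held 114 of the 566 UMIs of Tcf7KO members, these were 0.32 and -0.72. Cables1, a cyclin-dependent kinase partner, Abcb9, a peptide transporter, and Ggta1, a glycosyltransferase, differed by -0.79, -0.61 and -0.59.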

How the data were processed

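The deposited matrices hold UMI counts per gene and cell for 4 libraries, made with the 10x Genomics 3′ v2 kit per the labels' protocols. The submitters' processing notes name Seurat 3.0.0, GRCm38 and mm10 without their roles, and the aligner is not given in the sources used here. All deposited cells were kept. The authors' counts were used as deposited and no annotation of cell types was used.

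Cells were chosen by the rule on the raw counts and their UMIs summed per class and library. CPM, log2 CPM ratios and exact binomial intervals of the ratios, Poisson intervals of levels and Clopper-Pearson intervals of shares (all 95%) were computed here, with Python 3.11.15, numpy 2.4.6, scipy 1.17.1 and pandas 2.3.3. A ratio against a set at 0 used a floor of 3 UMIs. Genes were compared with at least 100 UMIs over both sets and at least 20 CPM in the higher set. A compared gene counted as higher or lower had at least 1.5-fold difference. Groups of 1 library allow no test between genotypes. Scaling factors came from edgeR 4.0.16 and DESeq2 1.42.0 in R 4.3.3 and served only as alternatives to the total. The comparison was tested on simulated data for members against other cells in Tcf7WT: with 200 of 6935 genes changed 2-fold, 100% of the changed genes and 0% of the others passed, and 95.1% of the intervals held the true ratio. The simulated counts were Poisson draws from the pooled profile of the library. Differences between cells were not simulated, so this checks the computation and counting error only.

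Total UMIs were 20289960 in TCRbeta Tcf7WT and 18372180 in Tcf7KO, of which members held 10506903 and 4762064, with medians of 2287 and 2505 UMIs a member. The matrices list 14661 and 14323 genes, and a gene listed in 1 of them could not be compared between genotypes. The TCRbeta libraries share 10 cell barcodes, and 9 members carry one of these. Scrublet (scanpy 1.11.5) marked 2 and 5 cells, under 0.5% of each library, so its calls were not used as a filter and cells above the 95th percentile of UMIs were left out as an added alternative. Whether doublets were removed before deposit is not given in the sources used here. Promoter windows are RefSeq's, and 97.7% of 14966 gene symbols matched the annotation.

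Named genes were, among those past both thresholds with at least 50 CPM, the 12 highest and 12 lowest against other cells in both libraries, the 10 highest and lowest between genotypes, the 6 highest and lowest against each class, the 5 highest and lowest differences of genotype ratios, and the 4 largest ratios of each list. Passed over were gene models without a name, segments of antigen receptors, and genes of mitochondria, ribosomes, haemoglobin and sex. Gm19590 and the genes of the Tyrobp and adaptor splits were named after their values were seen. The members and gene lists were chosen with earlier results of these data known. Some genes of the lists are not reported here.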

Additional observations from a re-analysis of the deposited data

Results flagged for a closer look

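Members against other cells gave opposite directions in the libraries for 5 genes, all of epithelial cells. For Agr2, a gene of secretory cells, the log2 ratio of members to other cells was -4.06 in Tcf7WT and 2.16 in Tcf7KO. Klk1, a kallikrein gene, had -4.72 and 1.52. The mucin gene Muc2 had -1.41 and 8.17, Oit1 had -5.24 and 0.59, and the goblet cell gene Spink4 had -4.07 and 7.29. The difference between the libraries was not tested. Without the epithelial-like cells (1 member and 10 other cells in Tcf7WT, 1 member and 2 other cells in Tcf7KO) the ratios were 1.03 and -0.07 for Agr2, 0.24 and 0.05 for Klk1, 0.14 and 0.42 for Muc2, -0.29 and -2.01 for Oit1 and 0.58 and -1.66 for Spink4, from at most 23 UMIs in a set of cells.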

How the results depend on the processing

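No paired analysis was possible because each genotype had 1 library and the labels carry no replicate numbers. Over 15 alternatives, 275 gene ratios gave 4122 values, of which 4093 kept their sign and 29, in 13 ratios, did not. Of 184 ratios past 1.5-fold, 54 were under it in at least 1 alternative. The share of members was 58.7% in Tcf7WT and 34.8% in Tcf7KO on thinned counts, 50.1% and 26.7% with at least 2 adaptor UMIs, 62.7% and 39.5% with at most 1 granzyme UMI, 33.7% in Tcf7KO without cells carrying 2 or more UMIs of other-type markers and 57.3% in Tcf7WT without cells above the 95th percentile of UMIs.

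Genes higher in members than in other cells numbered 78 in Tcf7WT and 89 in Tcf7KO with no minimum of CPM, 19 and 45 on thinned counts, 80 and 65 without cells with other-type markers, 19 in Tcf7WT with at most 1 granzyme UMI and 15 in Tcf7KO with at least 2 adaptor UMIs. Genes lower numbered 335 and 266 with no minimum of CPM. Between genotypes within members, 163 genes were higher and 188 lower with no minimum of CPM, and the lower genes numbered 29 with DESeq2 size factors, 72 on thinned counts and 177 without cells with other-type markers. That marker filter, as planned, includes Kit, Epcam, Ighm, Igha and Cd79b, which T cells here carry.

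Signs turned for cycling genes: against other cells, Ccna2 was 0.14 in Tcf7WT without cycling cells, and on thinned counts in Tcf7KO Cenpf was 0.093, Tpx2 0.52 and Ube2c 0.000104, with Tpx2 0.28 without the deepest cells. Mki67 between genotypes was -0.91 without cycling cells. Without cells with other-type markers, Cd83 against other cells in Tcf7KO was -0.65, and between genotypes Ier3 was 0.31 and Rsad2 0.39. Between genotypes within members, Muc2 was -2.15 with 500 to 3500 genes a cell, -2.15 without cycling cells and -2.18 without the deepest cells. With at least 2 adaptor UMIs, Retnlb was -1.02 and Spink4 -2.44. With 500 to 3500 genes a cell they were -1.16 and -2.54, without cycling cells -1.17 and -2.55, without epithelial-like cells -1.17 and -2.55, with the narrower marker filter -0.44 and -2.02 and without the deepest cells -1.20 and -2.46. In other cells, Muc2 was 0.28 without epithelial-like cells, 1.06 with the narrower filter and 0.16 without the deepest cells, and Spink4 was 0.15 and 0.48 in the last 2. The causes were not tested.

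Counts of 1 library a group cannot separate genotype from library, mouse or sort, which cannot be told apart here. At a median of 2287 or 2505 UMIs a member, absence of a granzyme UMI does not show absence of the transcript, and genes under 20 CPM are read in few cells.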

Other observations

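TCR beta variable genes were read too seldom to describe repertoires. Members held 372 Trbv UMIs in Tcf7WT and 154 in Tcf7KO. The leading gene was Trbv12-2 in both, with 19.4% and 17.5% of these UMIs in members and 20.8% and 19.3% in other cells. Gamma-delta T cell genes summed to 607 CPM in Tcf7WT members and 605 CPM in Tcf7KO members, led by Trgv2.

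Of the cytokine and chemokine genes, 0 of 17 measured were at least 1.5-fold higher in Tcf7WT members than in other cells and 5 lower, where 1.65% and 4.81% of all genes were, and in Tcf7KO 1 of 16 was higher and 3 lower, where 1.83% and 4.09% were. Tnf, the gene of tumour necrosis factor, was at 21.6 CPM in Tcf7WT members against 19.1 CPM in other cells and at 14.1 against 7.27 CPM in Tcf7KO. Lta, the gene of lymphotoxin alpha, was at 21.7 against 16.4 CPM and at 13.0 against 9.63 CPM. Tnfsf14, the ligand LIGHT, was at 18.1 against 15.7 CPM and at 10.7 against 8.82 CPM. All 3 were lower in Tcf7KO than in Tcf7WT, with log2 ratios of -0.62, -0.74 and -0.76 in members and -1.39, -0.76 and -0.84 in other cells. Among immediate-early and stress genes, 0 of 29 measured were at least 1.5-fold higher and 2 lower in Tcf7WT members than in other cells (median 0.16), and 0 were higher and 0 lower in Tcf7KO (median 0.15). Interferon response genes had 0 of 25 higher and 2 lower in Tcf7WT and 3 of 26 higher and 3 lower in Tcf7KO.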
